A study of Mus musculus with 8 samples.

Results

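The 6 genes followed here in memory CD4 T cells belong to the cytotoxic granule. They are the granzymes Gzma, Gzmb, Gzmk and Gzmm, the pore protein perforin (Prf1) and the granule membrane protein Nkg7. They were chosen by name, with their signals on these arrays known, and a probe set counted as a member when it was annotated to 1 of these symbols alone. That gave 7 probe sets of 6 genes, out of 45037 probe sets of 18193 genes. All 7 lay above the array median on at least 2 arrays, the limit used for testing, which left 23725 probe sets of 11217 genes.

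The cells came from spleens of mice on day 60 after infection with LCMV Armstrong, a strain of lymphocytic choriomeningitis virus that mice clear. All 4 groups shared this infection and time point and combine 2 kinds of helper cell, follicular (Tfh) and type 1 (Th1), with 2 labelled genotypes, Rictor-null and wild-type (WT). Each group had 2 Affymetrix arrays, each from 100 ng of RNA pooled from at least 10 mice, so that the spread between arrays is one between pools and not between animals. The strain, age and sex of the mice, the promoter or Cre behind the Rictor deletion, the part of the gene deleted and the gates of the sort are not known here.

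Cytotoxic lymphocytes kill by releasing granules onto a target cell. Perforin opens the target's membrane, and granzymes, a family of serine proteases, enter through it and cut proteins inside. These genes are best known in CD8 T cells and natural killer (NK) cells, and CD4 T cells of the Th1 kind can also express them. Rictor marks mTOR complex 2, which phosphorylates AKT.

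The windows around the start sites of Gzma, Gzmb and Gzmk are shown because these granzymes had the widest spread between groups among the 6 genes. Each runs from 250 bases before to 50 bases after the start in RefSeq (build GRCm38.p6), 5′ to 3′ on the gene's strand, and capitals mark matches to the motifs named after them. All 3 genes lie on the minus strand, Gzma at chr13:113100932-113101231, Gzmb at chr14:56262285-56262584 and Gzmk at chr13:113180916-113181215.
Gzma: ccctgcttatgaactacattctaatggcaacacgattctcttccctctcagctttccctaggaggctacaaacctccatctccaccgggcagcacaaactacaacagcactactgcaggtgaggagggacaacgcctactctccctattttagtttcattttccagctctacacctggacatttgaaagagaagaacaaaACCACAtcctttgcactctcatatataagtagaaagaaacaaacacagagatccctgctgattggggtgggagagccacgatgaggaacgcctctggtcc
Gzmb: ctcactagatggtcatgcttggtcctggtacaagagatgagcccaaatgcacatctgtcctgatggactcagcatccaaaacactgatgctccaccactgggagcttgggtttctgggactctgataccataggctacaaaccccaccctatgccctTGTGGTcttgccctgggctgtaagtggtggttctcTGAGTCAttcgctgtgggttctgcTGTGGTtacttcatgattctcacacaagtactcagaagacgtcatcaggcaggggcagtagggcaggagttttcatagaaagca
Gzmk: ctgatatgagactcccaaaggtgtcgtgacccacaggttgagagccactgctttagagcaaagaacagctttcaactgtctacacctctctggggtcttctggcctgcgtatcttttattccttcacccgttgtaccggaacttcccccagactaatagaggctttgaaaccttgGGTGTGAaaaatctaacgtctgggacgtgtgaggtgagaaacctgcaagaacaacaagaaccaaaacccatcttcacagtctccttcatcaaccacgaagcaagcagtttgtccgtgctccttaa

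The motifs searched, on both strands, were the RUNX core ACCACA, the T-box site GGTGTGA, the AP-1 site TGANTCA and the FOXO site GTAAACA. The Gzma window held 1 RUNX core, at -50 to -45 from the start. The Gzmb window held the RUNX core at -93 to -88 and at -34 to -29, both on the other strand, and 1 AP-1 site at -58 to -52. The Gzmk window held 1 T-box site at -75 to -69 and no RUNX core. Both windows of Gzmm, 1 of Prf1 and 1 of Nkg7 held a RUNX core, a T-box site or both. None of the windows of the 6 genes held the FOXO letters. Over all 32851 windows of this length, 16.8% held the RUNX core, 3.98% the T-box site, 7.81% the AP-1 site and 3.65% the FOXO site. No matches overlapped one another, and a match describes letters in a window and not a bound site.

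Array medians ranged from 35.7 to 37.7, and the first 3 principal components held 36.0%, 27.6% and 20.6% of the variance. The arrays farthest out on the third component were replicate 2 of Rictor-null Tfh and replicate 1 of WT Th1 cells. The CD4 T cell markers Cd3e, Cd3d, Cd3g and Cd4 summed to between 12920 and 14453 on every array. Cxcr5 and Bcl6, which define Tfh cells, were higher in Tfh than in Th1 cells in both genotypes (log2 differences 1.36 and 0.48 in WT, adjusted p = 9.31e-05 and 0.00197). The Th1 markers Tbx21 and Ifng differed by -0.07 and 0.09 log2 between WT Tfh and WT Th1 cells and did not pass (adjusted p = 0.449 and 0.3). Of the 4 Th1 markers tested, Cxcr6 was lower in Rictor-null Tfh than Rictor-null Th1 cells (-0.58, adjusted p = 0.0186), and no other passed between cell types. Rictor itself was at 563 and 576 in Rictor-null Tfh cells, 560.3 and 563 in WT Tfh cells, 493 and 474 in Rictor-null Th1 cells, and 468 and 556 in WT Th1 cells. The position of its probe set relative to the deleted part is not known here, so it does not check the genotype labels.

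Gzma, a granzyme with trypsin-like activity, was far brighter in both Rictor-null groups than in the WT groups. Its signal (1417898_a_at, linear intensity) was 1633 and 1472 in Rictor-null Tfh cells and 980.4 and 998 in Rictor-null Th1 cells. In WT cells it was 300.4 and 288 in Tfh cells and 99.1 and 87.8 in Th1 cells. No 2 groups overlapped, and the order was Rictor-null Tfh, Rictor-null Th1, WT Tfh and WT Th1.

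Group means of Gzma were 1552 ± 114 for Rictor-null Tfh, 294 ± 8.96 for WT Tfh, 989 ± 12.1 for Rictor-null Th1 and 93.5 ± 7.96 for WT Th1 cells (SD, n = 2 each). The ratio of mean signals between genotypes was 5.28 in Tfh cells and 10.6 in Th1 cells. Differences below are on the scale of log2(signal + 32) with a standard error (SE) from a fit over all arrays, and the added 32 shrinks differences of dim probe sets. On that scale Gzma was higher by 2.28 ± 0.0703 in Rictor-null than WT Tfh cells and by 3.03 ± 0.0703 in Th1 cells. These values, and those of the other 5 genes, are a description without a p-value, because the genes were chosen with these signals known.

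In these bulk samples, fewer cells that express a gene and less of its RNA per cell cannot be told apart. The genotype difference of Gzma was smaller in Tfh than in Th1 cells on the log2 scale, with -0.75 ± 0.0995 for the first minus the second (-0.34 with the largest pseudocount tried). On the linear scale the order turned, with a gain of 1258 signal units in Tfh cells against 896 in Th1 cells. Between cell types, Gzma was higher in Tfh than in Th1 cells by 1.38 ± 0.0703 in WT and by 0.63 ± 0.0703 in Rictor-null cells.

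**Figure D1:**
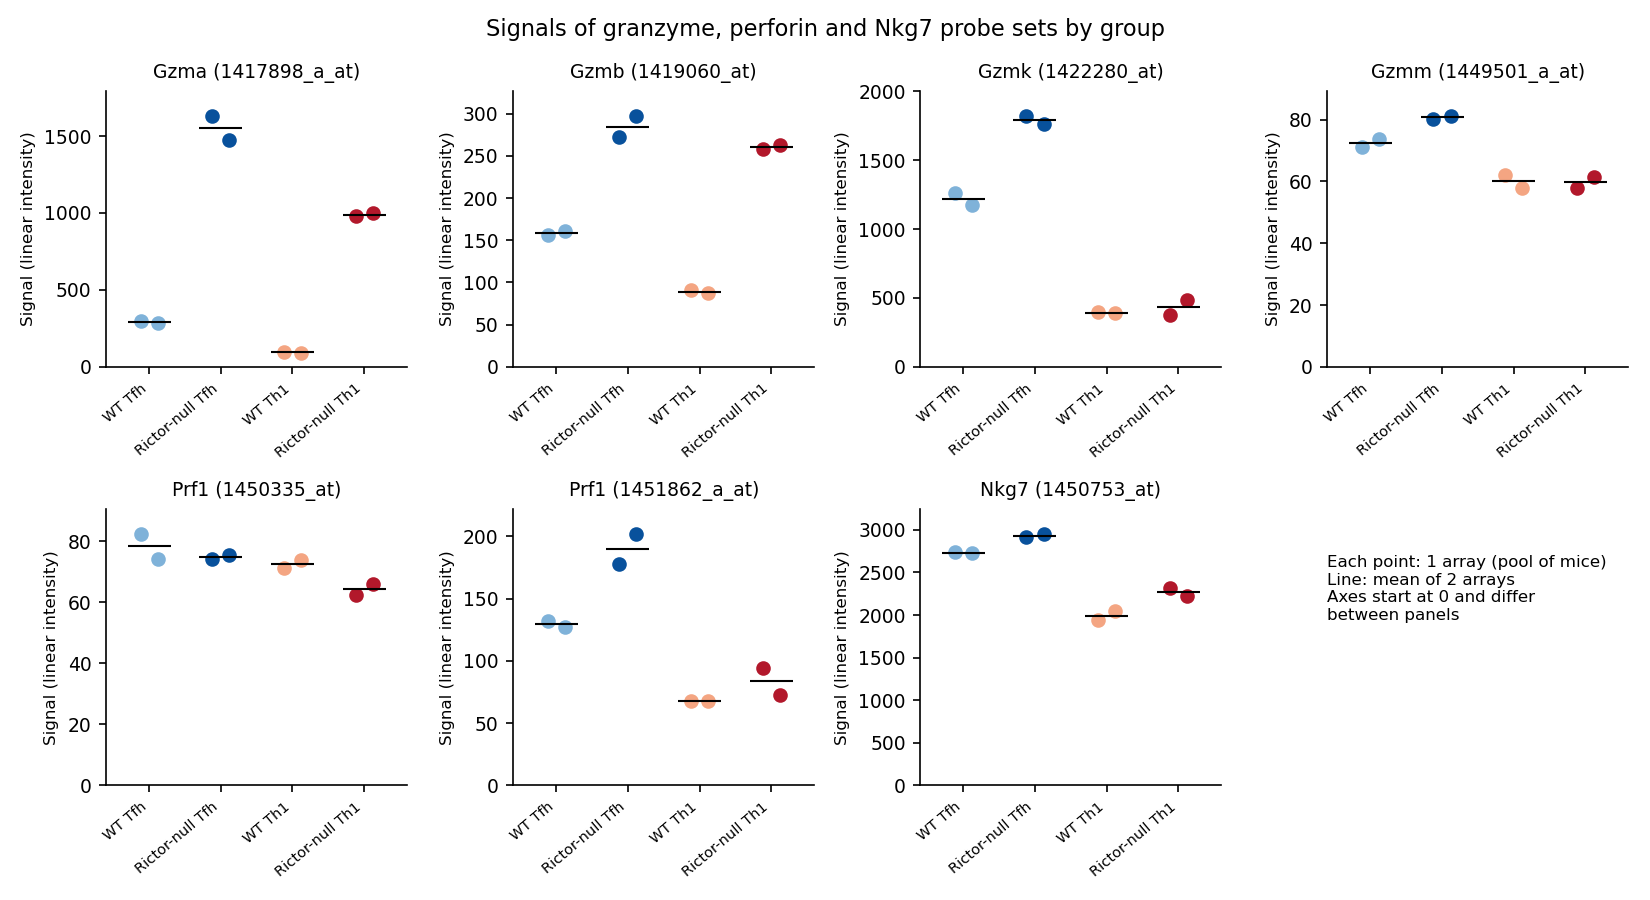
Signal (linear intensity) of the 7 probe sets on each array, as points, by group, with the mean of 2 arrays as a line; each panel has its own axis from 0. Gzma and Gzmb are brighter in both Rictor-null groups than in either WT group, and Gzmk is brighter in both Tfh groups than in either Th1 group.

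Gzmb, the granzyme that cuts caspases after aspartate, had the same order of group means with smaller ratios. Its signal (1419060_at) was 272 and 298 in Rictor-null Tfh cells, 157 and 161 in WT Tfh cells, 258 and 263 in Rictor-null Th1 cells and 90.5 and 87.0 in WT Th1 cells. Both Rictor-null groups lay above both WT groups.

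Gzmb means were 285 ± 18.3, 159 ± 3.33, 260.4 ± 3.75 and 88.8 ± 2.45 in the same order of groups (SD, n = 2 each). Rictor-null cells were higher by 0.73 ± 0.0604 log2 in Tfh cells, a ratio of 1.79, and by 1.28 ± 0.0604 in Th1 cells, a ratio of 2.93. The genotype difference in Tfh cells minus that in Th1 cells was -0.55 ± 0.0854 (-0.32 with the largest pseudocount tried), and here the linear gain was also the smaller one in Tfh cells, 126 against 172 signal units. WT Tfh cells were above WT Th1 cells by 0.66 ± 0.0604. Rictor-null Tfh cells stood above Rictor-null Th1 cells on every array, but by only 0.11 ± 0.0604, with a range of 0.06 to 0.17 when 1 array was left out.

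Gzmk, a granzyme that is often expressed in memory T cells, differed between the cell types in both genotypes, and between the genotypes in Tfh cells. The signal of 1422280_at was 1823 and 1759 in Rictor-null Tfh cells and 1262 and 1176 in WT Tfh cells. In Th1 cells it was 379.7 and 485 in Rictor-null and 396 and 387 in WT cells. Every Tfh array was brighter than every Th1 array, and the Th1 groups overlapped each other.

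Means of Gzmk were 1791 ± 45.1 for Rictor-null Tfh, 1219 ± 60.4 for WT Tfh, 432 ± 74.3 for Rictor-null Th1 and 392 ± 6.34 for WT Th1 cells (SD, n = 2 each). Tfh cells were higher than Th1 cells by 1.56 ± 0.0956 log2 in WT (ratio 3.11) and by 1.98 ± 0.0956 in Rictor-null cells (ratio 4.14). Rictor-null Tfh cells were higher than WT Tfh cells by 0.54 ± 0.0956, a ratio of 1.47. In Th1 cells the genotype difference was 0.12 ± 0.0956, and it was -0.04 without Rictor-null Th1 replicate 2 and 0.29 without replicate 1. The genotype difference of Gzmk in Tfh cells minus that in Th1 cells was 0.42 ± 0.135, with a range of 0.26 to 0.59 when 1 array was left out.

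Gzmm, a granzyme with a preference for methionine and leucine, was dim, with small differences. Its signal (1449501_a_at) was 80.3 and 81.3 in Rictor-null Tfh cells, 71.2 and 73.9 in WT Tfh cells, 57.9 and 61.5 in Rictor-null Th1 cells and 62.2 and 58.0 in WT Th1 cells. The Tfh arrays all lay above the Th1 arrays, and the Th1 groups overlapped. Tfh cells were higher by 0.18 ± 0.0564 log2 in WT and by 0.30 ± 0.0564 in Rictor-null cells. The genotype difference was 0.11 ± 0.0564 in Tfh cells and -0.01 ± 0.0564 in Th1 cells, the latter with either sign over the alternatives.

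Prf1 had 2 probe sets, and they did not show the same pattern. The signal of 1451862_a_at was 178 and 202 in Rictor-null Tfh cells, 132 and 127 in WT Tfh cells, 94.5 and 72.8 in Rictor-null Th1 cells and 68.0 and 67.4 in WT Th1 cells. No 2 groups overlapped in this probe set, though the Rictor-null Th1 arrays were far apart (mean 83.7 ± 15.4, SD, n = 2).

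By 1451862_a_at, Rictor-null Tfh cells were above WT Tfh cells by 0.45 ± 0.0895 log2 (ratio 1.46), and Rictor-null Th1 cells were above WT Th1 cells by 0.21 ± 0.0895 (0.07 to 0.34 when 1 array was left out). The same probe set was higher in Tfh than in Th1 cells by 0.70 ± 0.0895 in WT (ratio 1.92) and by 0.94 ± 0.0895 in Rictor-null cells (ratio 2.27). The other probe set, 1450335_at, read 74.2 and 75.6 in Rictor-null Tfh cells, 82.3 and 74.2 in WT Tfh cells, 62.5 and 65.9 in Rictor-null Th1 cells, and 71.1 and 73.9 in WT Th1 cells. There the Tfh genotypes overlapped and Rictor-null Th1 cells were the lowest group. The WT cell types nearly touched, at 74.2 on the lower Tfh array and 73.9 on the higher Th1 array. The cell type differences of 1450335_at were smaller than those of 1451862_a_at, 0.08 ± 0.0595 in WT (ratio 1.08) and 0.15 ± 0.0595 in Rictor-null cells (ratio 1.17). Its genotype differences were -0.04 ± 0.0595 in Tfh and -0.12 ± 0.0595 in Th1 cells, where those of 1451862_a_at were above 0. The Tfh difference of 1450335_at ran from -0.10 to 0.01 when 1 array was left out, so its sign is not settled. A higher perforin signal in Rictor-null cells was read by 1 of the 2 probe sets, and where each probe set lies on the transcript is not known here.

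Nkg7, a membrane protein of the granule that takes part in its release, was the brightest of the 7 probe sets by signal on every array, which compares no RNA levels between genes. Its signal (1450753_at) was 2913 and 2950.2 in Rictor-null Tfh cells, 2737 and 2731 in WT Tfh cells, 2316 and 2223 in Rictor-null Th1 cells and 1938 and 2042 in WT Th1 cells. No groups overlapped, in the same order as 1451862_a_at of Prf1. Tfh cells were higher by 0.45 ± 0.0566 log2 in WT (ratio 1.37) and by 0.36 ± 0.0566 in Rictor-null cells (ratio 1.29). The genotype difference was 0.10 ± 0.0566 in Tfh cells (ratio 1.07) and 0.19 ± 0.0566 in Th1 cells (ratio 1.14).

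**Figure D2:**
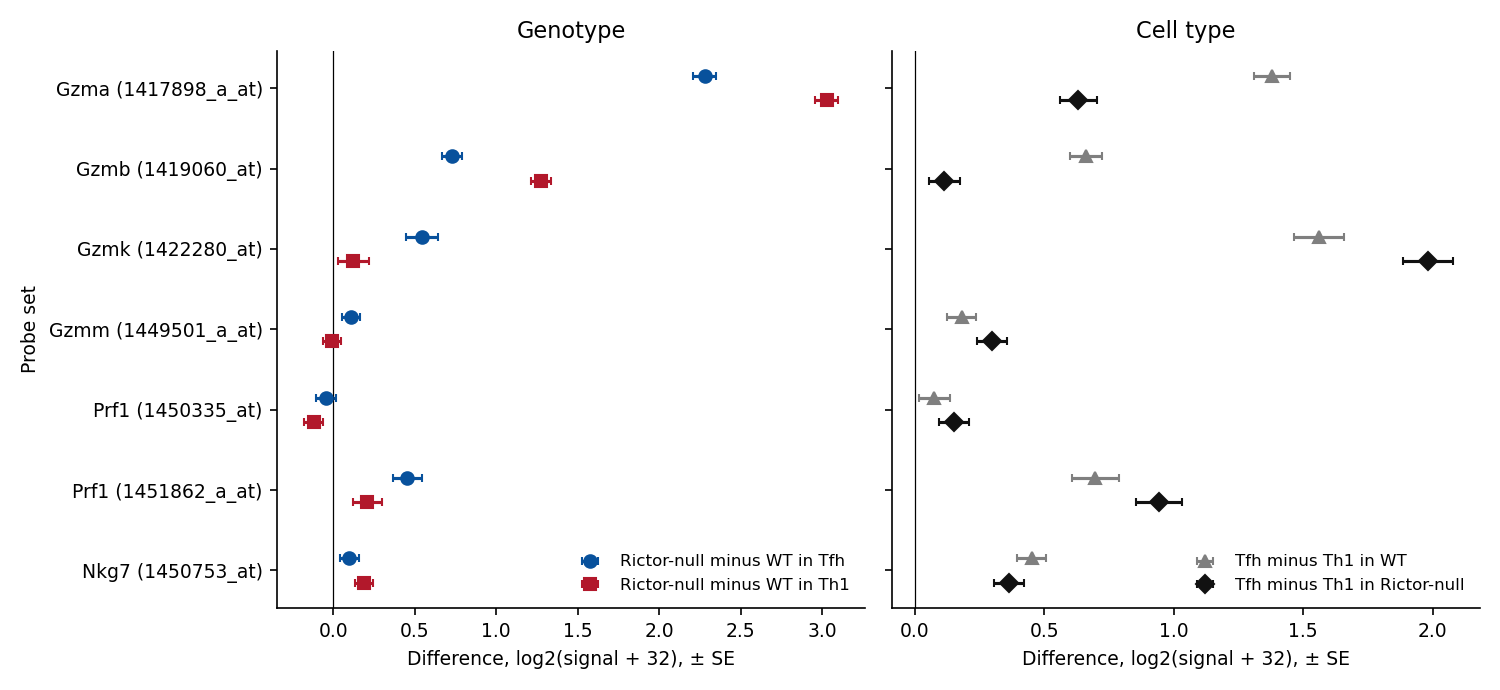
Differences in log2(signal + 32) with their SE for the 7 probe sets, between genotypes (left) and between cell types (right). The genotype differences of Gzma reach 2.28 in Tfh and 3.03 in Th1 cells, Gzmk has the largest cell type differences (1.56 and 1.98), and in the genotype panel 1451862_a_at of Prf1 lies above 0 and 1450335_at at -0.04 in Tfh, a value whose sign turned when 1 array was left out, and -0.12 in Th1 cells.

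Across the 7 probe sets, Rictor-null Tfh cells had the highest group mean in 6; in the other, 1450335_at of Prf1, it was WT Tfh cells. Both Rictor-null arrays lay above both WT arrays for 6 of the 7 in Tfh cells, beside 39.0% of all. In Th1 cells they lay above for 4 and below for 1, beside 28.8% and 26.2%. The median difference of the 7 was 0.45 in Tfh and 0.19 in Th1 cells, where that of all probe sets was 0.04 and 0.00.

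Between cell types, the Tfh arrays lay above the Th1 arrays for all 7 in both genotypes, beside 21.0% and 23.2% of all. These counts used the contrasts known when the genes were chosen, and nothing is read from them.

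The other granzymes on the array were near the bottom of the signal range. These 6 (Gzmc, Gzmd, Gzme, Gzmf, Gzmg and Gzmn) had signals between 2.22 and 18.9 on all arrays and none was above the limit for testing. Of the 10 granzymes read here, Gzma, Gzmb, Gzmk and Gzmm were thus the ones with a level that could be compared.

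Genes that serve the granule were taken from a list of 46 companions that held none of the 6 genes. The list was chosen with earlier results of these data known, so its counts and p-values describe these arrays and are no independent support. Of the 46, 44 had a probe set and 35 could be tested, each by its brightest probe set. In Tfh cells 7 of the 35 rose in Rictor-null cells and 0 fell, beside 9.0% of all genes higher and 1.46% lower, and the list's median difference was 0.10 against 0.04 for all genes. In Th1 cells 9 rose and 0 fell, beside 6.69% higher and 2.3% lower, with a median of 0.06 against -0.00. At an unadjusted p under 0.05 by limma, 13 were higher and 2 lower in Rictor-null Tfh cells, and 12 higher and 3 lower in Rictor-null Th1 cells. No share of all genes at that limit is given here, so nothing is read from these counts. After quantile normalization the calls split 7 to 2 in Tfh and 8 to 1 in Th1 cells. The 5 genes that rose in both cell types were Stx11, Cst7, Serpinb6a, Sytl2 and Lamp2. The Tfh count fell to 3 without WT Tfh replicate 2. The Th1 count fell to 5 without Rictor-null Th1 replicate 1, to 3 without its replicate 2 or without WT Th1 replicate 1, to 4 without WT Th1 replicate 2 and to 6 without either WT Tfh array. Without both arrays farthest out on the third component the counts were 7 and 8.

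Among 13 genes of granule transport and fusion, Stx11, the syntaxin lost in a familial form of hemophagocytic disease, changed most. Its signal was 409 and 384 in Rictor-null Tfh cells, 197 and 206 in WT Tfh cells, 298.5 and 305 in Rictor-null Th1 cells and 159.7 and 156 in WT Th1 cells, with both Rictor-null groups above both WT groups as for Gzma and Gzmb. Stx11 rose by 0.88 ± 0.0577 log2 in Rictor-null Tfh cells (adjusted p = 4.56e-05) and by 0.81 ± 0.0577 in Th1 cells (adjusted p = 5.13e-05). Another Stx11 probe set rose by 0.70 and 0.57, and the calls on the first held under every alternative run. Sytl2, which tethers granules to the membrane, rose by 0.35 ± 0.0719 in Tfh and by 0.31 ± 0.0719 in Th1 cells (adjusted p = 0.0177 and 0.0292). Lamp2, a membrane protein of lysosomes, rose by 0.39 ± 0.0772 (adjusted p = 0.0155) and 0.44 ± 0.0772 (adjusted p = 0.00784).

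The call on Sytl2 ended in Tfh cells without any of 3 arrays (Rictor-null Tfh replicate 2, WT Tfh replicates 1 and 2) and in Th1 cells without either WT Tfh array, either Rictor-null Th1 array or WT Th1 replicate 1, at an adjusted p of up to 0.185. That on Lamp2 ended in Tfh cells without WT Tfh replicate 2 (adjusted p = 0.146), and for Th1 cells without Rictor-null Th1 replicate 2 or WT Th1 replicate 1 (0.055 and 0.0616). Another Lamp2 probe set, 1416344_at, rose by 0.79 in Tfh cells, and its 0.23 in Th1 cells did not pass (adjusted p = 0.0639). The remaining 10 genes of transport did not pass in either cell type. They include Rab27a, the GTPase that docks granules (0.18 and 0.09), Unc13d, which primes them for fusion (0.21 and -0.16), Stxbp2, the partner of Stx11 (0.01 and -0.04), and Lamp1, the surface mark of degranulation (0.03 and -0.01).

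Of 7 genes of the granule matrix and of protease processing, 2 rose in Tfh and 1 in Th1 cells by their brightest probe sets. A dimmer probe set of Ctsb, 1417491_at, passed in Tfh cells (0.25, limma adjusted p = 0.0465). The brightest Ctsb probe set read 0.11 there and did not pass, nor did the remaining ones. Cst7 (cystatin F), which inhibits the cathepsins that activate granzymes, was at 1097 and 1122 in Rictor-null Tfh cells, 855 and 798 in WT Tfh cells, 811 and 755 in Rictor-null Th1 cells and 561 and 548 in WT Th1 cells. It rose by 0.41 ± 0.062 log2 in Tfh cells (adjusted p = 0.00389; 0.0601 without WT Tfh replicate 2) and by 0.47 ± 0.062 in Th1 cells (adjusted p = 0.00162). Cst7 acts against granzyme processing, so the members of this list that moved do not all act in 1 direction.

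Ctsl (cathepsin L) was the other matrix and processing gene that rose. Its signal was 153 and 159.7 in Rictor-null Tfh cells, 93.7 and 82.9 in WT Tfh cells, 99.2 and 98.9 in Rictor-null Th1 cells and 109 on both arrays of WT Th1 cells. It rose by 0.65 ± 0.0612 in Tfh cells (adjusted p = 0.00033), and its difference in Th1 cells was -0.10 and did not pass. The genotype effects of the cell types differed by 0.75 ± 0.0866 (adjusted p = 0.00878), 1 of 35 companions to pass that test, beside 1.02% of all genes. That call ended without WT Tfh replicate 2 (adjusted p = 0.059) or Rictor-null Th1 replicate 1 (0.0541).

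Srgn (serglycin), the proteoglycan that holds granzymes in the granule, had differences of 0.01 in Tfh and 0.09 in Th1 cells and did not pass. Ctsc (cathepsin C), which removes the propeptide of granzymes, stood at -0.01 and 0.06 and did not pass either.

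Of 6 protease inhibitors tested by their brightest probe sets, Serpinb6a rose in both cell types and Serpinb6b in Th1 cells. A dimmer probe set of Cstb, 1422507_at, passed in Tfh cells (0.26, limma adjusted p = 0.0447), where the brightest read 0.15 and did not pass. Serpinb6a was at 213 and 252 in Rictor-null Tfh cells, 142 and 131 in WT Tfh cells, 258 and 299.6 in Rictor-null Th1 cells and 196 and 199.8 in WT Th1 cells. It rose by 0.65 ± 0.0876 in Tfh cells (adjusted p = 0.00218) and by 0.43 ± 0.0876 in Th1 cells (adjusted p = 0.0165; 0.0648 to 0.103 without Rictor-null Th1 replicate 2 or without either WT Th1 array). Serpinb6b rose by 0.46 ± 0.103 in Th1 cells (adjusted p = 0.0252), a call that ended without any single Th1 or WT Tfh array (0.0521 to 0.16). Serpinb9, the inhibitor of granzyme B, differed by 0.12 in Tfh and 0.11 in Th1 cells and did not pass.

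Killing through surface ligands was covered by Fasl, Fas and Tnfsf10 (TRAIL). In Th1 cells Tnfsf10 rose by 0.39 ± 0.0803 (adjusted p = 0.0183) and Fasl by 0.24 ± 0.0615 (adjusted p = 0.041), and Fas differed by 0.04 and did not pass. The differences in Tfh cells were 0.05 for Tnfsf10, 0.18 for Fasl and 0.19 for Fas. None of these Tfh differences passed (limma adjusted p = 0.745, 0.0933 and 0.0573). For none of these genes did the genotype effects of the cell types differ at an adjusted p under 0.05. The Tnfsf10 call ended without Rictor-null Th1 replicate 2 (0.112) or without either WT Th1 array (0.0586 and 0.0943). The Fasl call ended in 12 of 20 alternatives, among them without any single Th1 or WT Tfh array (adjusted p of up to 0.189), and other probe sets of both genes did not pass.

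Of the regulators of cytotoxic genes, 6 were tested, and 1 rose in each cell type. Eomes, a T-box factor that drives granzyme and perforin genes in CD8 T cells, was at 1184 and 1030 in Rictor-null Tfh cells and 912 and 833 in WT Tfh cells, against 85.4 and 79.7 in Rictor-null and 66.9 and 68.3 in WT Th1 cells. It rose by 0.33 ± 0.0768 in Rictor-null Tfh cells (adjusted p = 0.0278), a call that ended without Rictor-null Tfh replicate 1 (0.0628) or WT Tfh replicate 1 or 2 (0.0868 and 0.211). Another Eomes probe set rose by 0.51 in the same comparison (adjusted p = 0.000664). Between the genotypes in Th1 cells the 2 Eomes probe sets had opposite signs, 0.20 for the brightest and -0.13 for the other, and neither passed. Prdm1 (Blimp-1) rose by 0.32 ± 0.0608 in Rictor-null Th1 cells (adjusted p = 0.0124; 0.0939 without Rictor-null Th1 replicate 1 and 0.0718 without WT Th1 replicate 2). Prdm1 differed by 0.12 in Tfh cells and did not pass, and its genotype effects did not differ between cell types at an adjusted p under 0.05. Tbx21 (T-bet) differed by 0.08 and 0.02, Runx3 by 0.03 and 0.06 and Zbtb7b (ThPOK), which holds back cytotoxic genes in CD4 T cells, by -0.16 and -0.21 in Tfh and Th1 cells, and none of these passed.

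**Figure D3:**
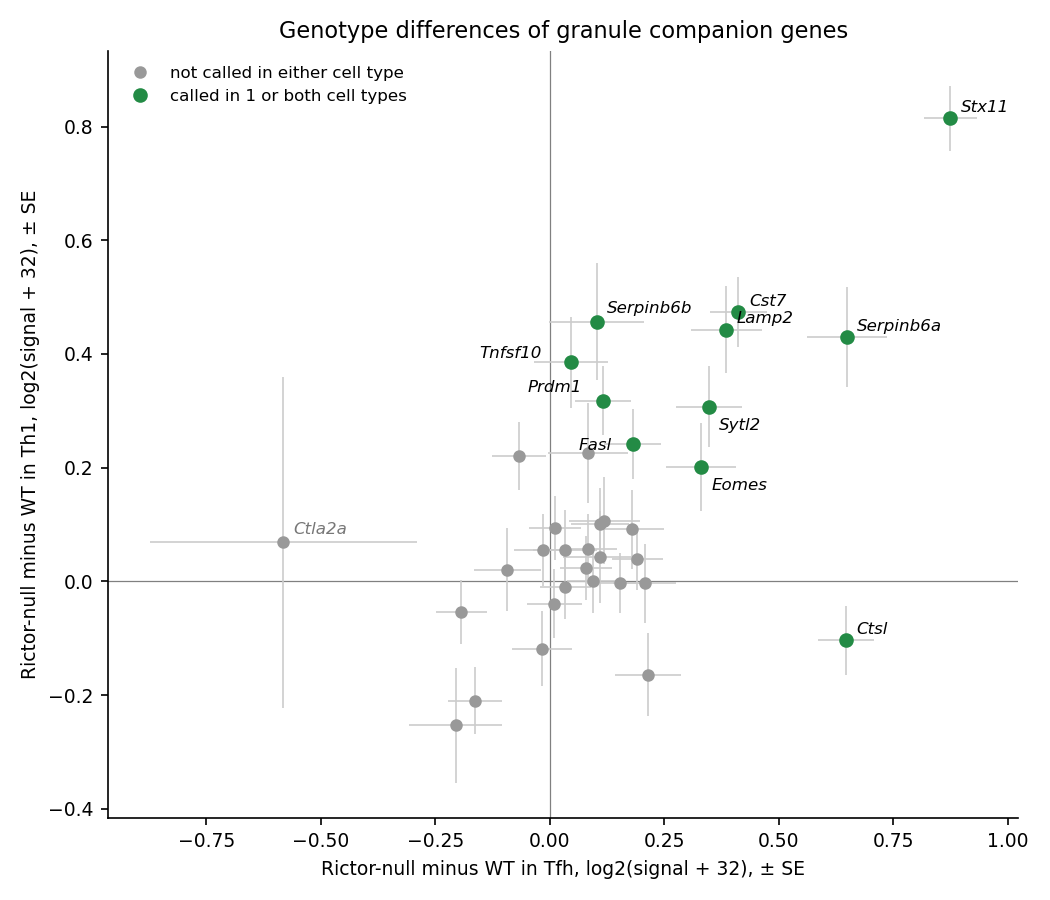
Rictor-null minus WT difference in log2(signal + 32) of each of 35 companion genes in Tfh cells (horizontal) and Th1 cells (vertical), with SE bars; green points passed the test in 1 or both cell types. Stx11 lies farthest along both axes (0.88 and 0.81), and Ctsl is high in Tfh cells alone (0.65 against -0.10).

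Between cell types the companions split both ways. In WT cells 5 were higher and 4 lower in Tfh than in Th1 cells, beside 2.01% of all genes higher and 8.21% lower, with a median of -0.03 against -0.06 for all genes. In Rictor-null cells 6 were higher and 5 lower, beside 2.92% and 5.83%, with a median of 0.02 against -0.01. After quantile normalization the calls split 6 to 3 in both genotypes. Eomes stood out, with 3.18 log2 more in WT Tfh cells (adjusted p = 7.34e-08) and 3.31 in Rictor-null Tfh cells (adjusted p = 5.07e-08). Cst7, Ctla2b and Stx11 were also higher in Tfh cells of both genotypes, Cst7 by 0.55 and 0.49 (adjusted p = 0.00169 and 0.00173). In WT cells the Stx11 call ended without any single WT array (adjusted p of 0.0738 to 0.146), its other probe set did not pass (0.0574), and the Ctla2b call ended without WT Tfh replicate 1 (0.06). Sytl2 was lower in Tfh cells of both genotypes, with differences of -0.45 and -0.41 (adjusted p = 0.00814 and 0.00823). The Sytl2 call ended in WT cells without either WT Tfh array or WT Th1 replicate 2 (0.0517 to 0.089), and in Rictor-null cells without Rictor-null Th1 replicate 1 (0.0655). Tnfsf10 was lower in the Rictor-null comparison, at -0.55 (adjusted p = 0.00356), where its other probe sets stood at -0.12 and -0.18 and did not pass (adjusted p = 0.303 and 0.247). Other genes passed by a dimmer probe set alone. These were Ap3b1 (1450915_at, 0.53 in WT and 0.57 in Rictor-null cells, adjusted p = 0.00304 and 0.00115, where the brightest read -0.04 and 0.17), Lamp2 (1416344_at, -0.48 in WT, adjusted p = 0.00392) and Ctsb (1444987_at, 0.22 in Rictor-null cells, adjusted p = 0.0412). The WT count of 9 fell to 2 and 3 without WT Tfh replicate 1 and 2 and to 4 and 3 without WT Th1 replicate 1 and 2, and the Rictor-null count of 11 to 6 and 7 without Rictor-null Th1 replicate 1 and 2.

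Markers of other cytotoxic cells were read beside these values. Of 9 NK cell markers listed, 6 had a probe set, with signals of up to 44.0, and their sum was 135 to 145 for Rictor-null Tfh, 141 to 144 for WT Tfh, 139 to 143 for Rictor-null Th1 and 125 to 136 for WT Th1 cells. Only 2 of these NK cell markers, Itga2 and Fcer1g, were above the limit for testing, and the other 4 were below it. Neither of the 2 passed in any comparison, though Fcer1g came near it between WT Tfh and WT Th1 cells (0.22, adjusted p = 0.0526 by limma). Ncr1, which defines NK cells, was at 19.5 to 30.7, below the array medians. Of the CD8 T cell markers, Cd8a was at 39.1 to 52.2 and did not pass, and Cd8b1 rose by 0.28 ± 0.0575 in Rictor-null Tfh cells (adjusted p = 0.0179). Both CD8 markers summed to 103 to 106 for Rictor-null Tfh, 92.5 to 92.6 for WT Tfh, 91.9 to 101 for Rictor-null Th1 and 97.1 to 106 for WT Th1 cells. The part of Cd8b1 in the Tfh comparison was not tested.

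Tfh markers moved with the genotype as well. All 5 on the list (Cxcr5, Bcl6, Pdcd1, Icos and Il21) rose in Rictor-null Tfh cells, by 0.36 to 0.80 log2, beside 9.0% of all genes higher. In Th1 cells 3 of 5 (Pdcd1, Icos and Il21) rose, by 0.34 to 0.49, beside 6.69%. This list too was chosen with earlier results of these data known. The summed signal of all 5 was 3733 to 3805 for Rictor-null Tfh, 2683 to 2753 for WT Tfh, 2883 to 3053 for Rictor-null Th1 and 2254 to 2364 for WT Th1 cells. Foxp3, the marker of regulatory T cells, was at 27.5 and 41.5, 18.7 and 22.9, 35.0 and 27.5, and 16.9 and 23.7 in the same order and below the limit for testing. The part of these cells in the granzyme differences was not tested.

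Gzma and Gzmk lie near each other on chromosome 13, Gzma at chr13:113093824-113100981 and Gzmk at chr13:113171630-113180965 (GRCm38.p6, both on the minus strand). Gzma lies within the span of Cdc20b (chr13:113034975-113121019), whose probe set was below the limit for testing on the arrays. Nearby Esm1 was higher in Tfh than in Th1 cells by 0.63 in WT (adjusted p = 0.03) and 0.61 in Rictor-null cells (adjusted p = 0.028), as Gzmk was, but its genotype differences were -0.06 and -0.03 and did not pass. The Esm1 calls ended without either WT array of Tfh or Th1 cells or either Rictor-null Th1 array in WT (adjusted p of 0.0523 to 0.206), and without either Rictor-null Th1 array in Rictor-null cells (0.14 and 0.106). Snx18 differed by 0.20 and 0.14 between genotypes and did not pass; Gpx8 and Ccno were below the limit.

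Gzmb lies at chr14:56258836-56262334 among other granzyme genes, Gzmm at chr10:79689020-79695261, Prf1 at chr10:61297751-61304684 and Nkg7 at chr7:43437138-43438246. Around all 6 genes, 31 neighbours were listed and 14 could be tested. Of these, 2 rose in Rictor-null Tfh cells (Bsg near Gzmm by 0.38, adjusted p = 0.011, and Sgpl1 near Prf1 by 0.24, adjusted p = 0.026), beside 9.0% of all genes higher in that comparison. By limma 0 rose or fell in Th1 cells at an adjusted p under 0.05. At an unadjusted p under 0.05, 4 were higher and 1 lower in Tfh cells, and 2 higher and 1 lower in Th1 cells, with no share of all genes given at that limit. The Bsg and Sgpl1 calls both ended without Rictor-null Tfh replicate 2 or without either WT Tfh array, which left 0. Between cell types, 1 of the 14 was higher (Esm1) and 2 were lower in Tfh than in Th1 cells in each genotype. The lower ones were Cenpj near Gzmb (-0.26 in WT, -0.23 in Rictor-null cells) and Polrmt near Gzmm (-0.32 and -0.35). Of all genes, 2.01% were higher and 8.21% lower in WT, and 2.92% and 5.83% in Rictor-null cells. Each of these neighbour calls ended without some single arrays. Of the neighbours listed for Gzma, 2 could be tested, Esm1 at 108678 and Snx18 at 491198 bases from it, and neither passed between genotypes. The 6 genes themselves, Gzmk among them, were left out of the neighbours. Any effect shared along the region was not tested.

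**Figure D4:**
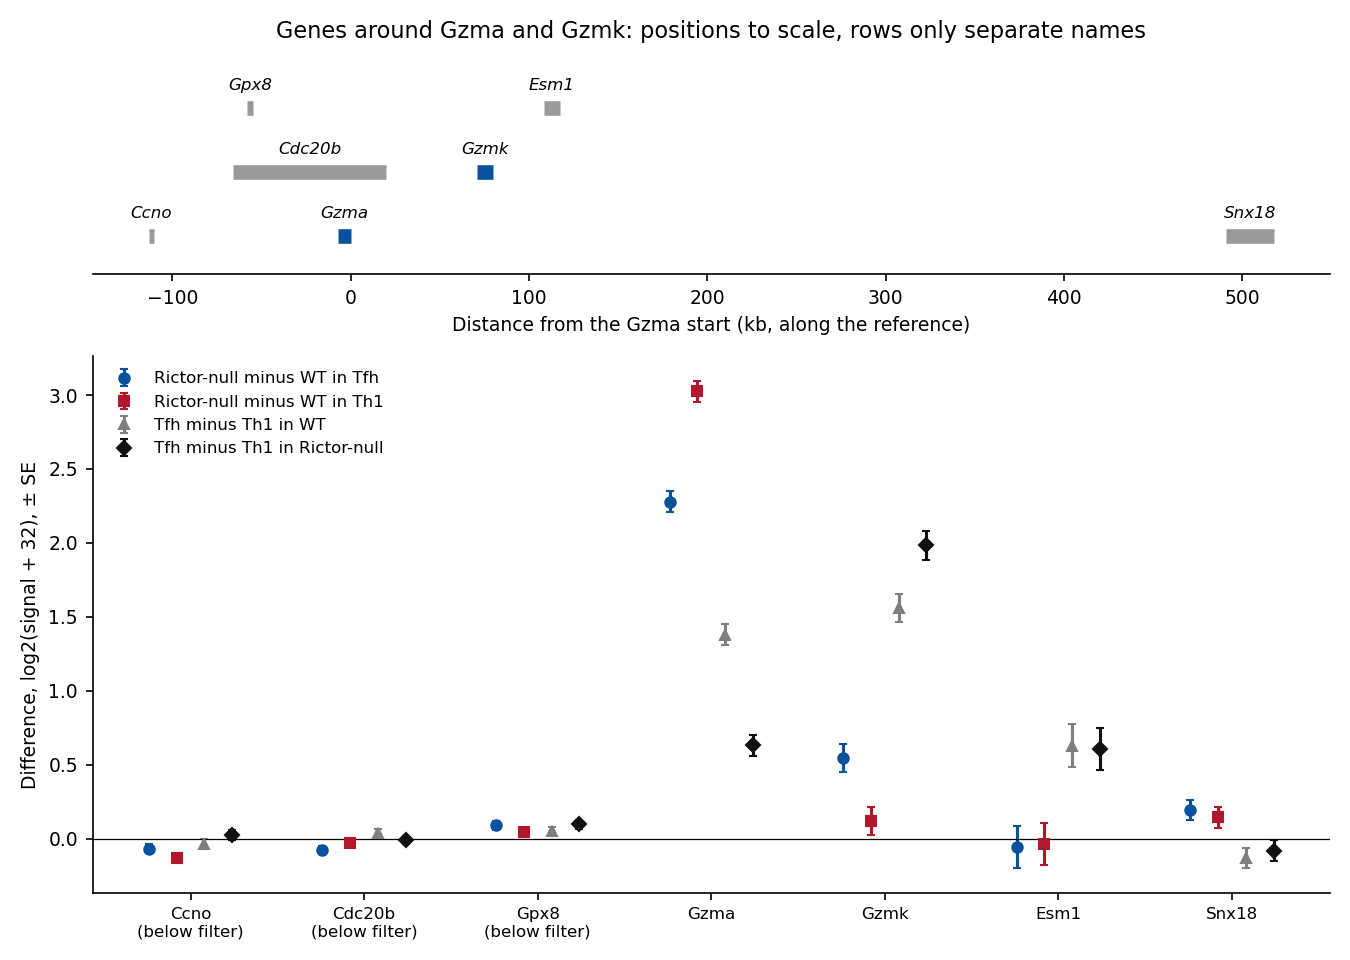
Top: genes around Gzma and Gzmk drawn to scale by distance from the Gzma start in kb (rows only keep names apart; neighbours with no probe set are left out). Bottom: difference in log2(signal + 32) ± SE of each gene in 4 comparisons; genotype differences of Esm1 lie near 0 (-0.06 and -0.03) where those of Gzma are 2.28 and 3.03.

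The genes whose pattern over the 8 arrays was most like that of a granzyme or of Prf1 were found by Pearson's r among 1240 genes that varied by at least 0.5 log2; the 8 points are 4 groups of 2, so r mostly ranks the agreement of 4 group means, and no p is given. Gzma was closest to Chst11 (r = 0.991), Osbpl3 (0.987) and Rilpl2 (0.986). Gzmb was closest to Klrg1 (r = 0.985) and Klrd1 (0.984), both lectin-like receptors of cytotoxic lymphocytes, and to Osbpl3 (0.979). Klrg1 was at 329 and 374 on the Rictor-null Tfh arrays, 142 and 140.1 on the WT Tfh arrays, 337 and 373 on the Rictor-null Th1 arrays and 82.6 and 80.5 on the WT Th1 arrays, with the Rictor-null groups overlapping each other above both WT groups. Gzmk was closest to the chemokine Xcl1 (r = 0.991), the Tfh receptor Cxcr5 (0.988) and Ccnc (0.985), and 1451862_a_at of Prf1 to Ddx43 (0.995), the chemokine Ccl3 (0.980) and Lpin1 (0.980).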

How the data were processed

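Signals of 8 Affymetrix arrays in 4 groups of 2 were taken from the deposited value table, whose values are intensity per probe set as the authors gave it, not in log units. The submitters' processing notes name MAS5 and RMA with no version, role or order, and the scaling, probe positions and detection calls were not used here. Of 45037 probe sets, 34945 were annotated with 1 symbol, 932 with several and 9160 with none; 0 symbols changed through the gene ID.

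Signals were taken to log2 after adding 32. Probe sets above their array's median on at least 2 arrays were fitted with 1 mean per group over all 8 arrays in limma 3.58.1 under R 4.3.3 (residual degrees of freedom 4, prior 5.37), with Benjamini-Hochberg adjustment over all 23725 probe sets and a threshold of 0.05. Such p-values measure the spread between pools. A gene other than the 6 was read by its brightest probe set; "rose" and "fell" mark adjusted p under 0.05. Sample precision is limited by the number of arrays. The method was tested on simulated data, where it recovered 16% of changes of 0.25 log2, 86% of those of 0.5 and 92% of those of 1. The simulation changed 200 of 23725 probe sets in Rictor-null Tfh cells alone, with independent normal noise, and gave 10 false calls. On the real arrays 2387 probe sets were called between the Tfh genotypes, so these shares are not rates for the tests above. A difference near 0.25 that did not pass is not shown to be absent.

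The 6 genes, the companion and marker lists and the tests were chosen with earlier results of these data known. Named were all 6 genes, companions called between genotypes or brightest in their role, markers, neighbours of Gzma and Gzmk and the 3 closest patterns. Others were added after their values were seen. Among companions these were Rab27a, Unc13d, Stxbp2, Lamp1, Ap3b1, Ctsc, Ctsb, Cstb, Serpinb9, Fas, Tbx21, Runx3, Zbtb7b and Ctla2b. Among neighbours they were Bsg, Sgpl1, Cenpj and Polrmt. The cell type calls of Cst7, Sytl2, Tnfsf10, Stx11, Eomes and Lamp2 were also added then. Alternatives covered scaling, pseudocount, filter, probe set choice, variance trend, array weights, arrays in the fit, a replicate block and each array left out. Promoters were those of RefSeq, with all 6 genes matched.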

Additional observations from a re-analysis of the deposited data

Results flagged for a closer look

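Ctsl (cathepsin L) was the 1 companion gene whose genotype effect differed between cell types by a test of the difference itself. The effect in Tfh cells minus that in Th1 cells was 0.75 ± 0.0866 log2 (limma, adjusted p = 0.00878). Both Rictor-null Tfh arrays lay above both WT Tfh arrays, as for 39.0% of all probe sets. Both Rictor-null Th1 arrays lay below both WT Th1 arrays, as for 26.2% of all. The Th1 difference of -0.10 did not pass (limma, adjusted p = 0.342), so a fall in Th1 cells is not shown. The call ended without WT Tfh replicate 2 (adjusted p = 0.059) or Rictor-null Th1 replicate 1 (adjusted p = 0.0541).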

How the results depend on the processing

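Over 20 alternatives and a crossed block, 35 differences of the 7 probe sets took 702 values, of which 609 moved by less than 1 SD between replicates and 93 by more. The sign turned under at least 1 alternative for 3 of them: Gzmk and Gzmm between genotypes in Th1 cells, and 1450335_at of Prf1 between genotypes in Tfh cells. Gzma kept differences of 1.99 to 2.37 in Tfh and 2.33 to 3.30 in Th1 cells. Counts of companions without 1 array ran from 3 to 9 (Tfh, main 7), 3 to 11 (Th1, main 9), 2 to 11 (WT cell types, main 9), 6 to 11 (Rictor-null cell types, main 11) and 0 to 4 (interaction, main 1). With no filter the Th1 count was 5. The Rictor-null cell type count was 7 with array weights and 7 with the compared arrays alone. Neighbour counts ran from 0 to 3 (Tfh, main 2), 0 to 3 (WT cell types, main 3) and 0 to 3 (Rictor-null cell types, main 3) without 1 array. The Tfh neighbour count was 1 under quantile normalization, 1 without both arrays farthest out on the third component (chosen after seeing the data), and 1 with the compared arrays alone, where the Rictor-null cell type count was also 1. The Th1 neighbour count (main 0) was 2 with each array divided by its median, 1 with the largest pseudocount tried and 1 with no filter. The cause of these changes was not tested. Quantile normalization moved the split of all probe sets from 2006 higher and 381 lower to 1280 and 706 in Tfh cells, from 1515 and 560 to 1178 and 790 in Th1 cells, from 548 and 1682 to 765 and 913 between WT cell types, and from 1002 and 1438 to 1129 and 1080 between Rictor-null cell types, where dividing by the median gave 815 and 2311. The labels do not say that replicate numbers pair pools, and differences between same-numbered replicates correlated at 0.31, 0.13, -0.21 and -0.22 across 23725 probe sets in the 4 comparisons. With the replicate block the companion counts were 7, 8, 7, 8 and 1, and the neighbour count in Tfh cells was 1. With crossed numbers, chosen after seeing the data, the companion counts between cell types were 12 and 12. The number of arrays limits what could be seen.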
